A study of Mus musculus with 3 samples.

Results

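The genes described here are 39 enzymes and carriers, mostly of mitochondrial energy metabolism. Of these, 17 belong to the tricarboxylic acid (TCA) cycle with its cytosolic and malic side reactions. The other 22 belong to fatty acid oxidation, among them the peroxisomal thiolase Acaa1a. All 39 were taken by gene symbol from the platform's annotation, and 38 of the 39 had a named probe, among 16593 genes with one. Hadha had none and was not analysed here. The 38 genes were read by 61 probes.

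Expression had been measured on 3 Illumina mouse beadchips, which carry bead-bound probes read in a single colour. The RNA came from cells sorted for the red fluorescent protein Cherry at day 10 (counted from an event that the labels do not name), after adenovirus had been given by injection into the splenic lobe, on the dorsal side of the gland, of Rag1-/- mice, a strain without mature T and B cells. Islets had been taken out first, and the cells came from the digested acinar fraction. The sample titles and the growth protocol name delta cells, the extraction protocol and the design text beta cells; the labels name neither the gene that the virus carried nor whether the replicates were separate mice. All 3 arrays (replicates 1, 2 and 3) belong to this group, and no control or other tissue was analysed, so no value below is a change caused by the treatment.

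The TCA cycle oxidises the acetyl group of acetyl-CoA to carbon dioxide in the mitochondrial matrix and passes electrons to the respiratory chain. Beta-oxidation shortens fatty acyl-CoA by repeated rounds of dehydrogenation, hydration, dehydrogenation and thiolysis, and its acetyl-CoA feeds the same cycle. Long fatty acids enter mitochondria on carnitine. In the exocrine pancreas mitochondria supply ATP for the synthesis and export of digestive enzymes, and in islet cells mitochondrial metabolism is coupled to hormone secretion.

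A probe was called above background where its detection p, the share of negative-control beads at least as bright, stayed under 0.05 on each of the 3 arrays. A gene was called where it had such a probe. By this rule 14 of 17 TCA cycle genes (82.4%) and 17 of 21 measured fatty acid oxidation genes (81.0%) were above background, against 6787 of all 16593 named genes (40.9%). The shares of the 2 pathways differed by 1.40 percentage points (TCA cycle minus fatty acid oxidation), and the sign turned at a detection p of 0.01 (-10.4) and after a Benjamini-Hochberg adjustment of each array's detection p-values (-4.48). By probe, 15 of 24 TCA cycle probes (62.5%) and 22 of 37 fatty acid oxidation probes (59.5%) were called, against 33.4% of all named probes. The 7 genes that were not called, Idh1, Sucla2, Mdh1, Cpt1a, Hadh, Acat1 and Etfdh, were not above background on any array with any of their probes.

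Levels are given as log2 of the background-corrected and quantile-normalised intensity of a gene's brightest probe. Where values are listed for each array they follow replicates 1, 2 and 3, and ± marks the SD over them (n = 3). The lowest level called above background was 4.83, 4.77 and 4.75. The median level was 7.04 over the 17 TCA cycle genes and 6.86 over the 21 fatty acid oxidation genes, against 4.64 over all named genes. Over the called genes alone it was 7.82 and 7.18, against 6.89. Probes differ in efficiency, so the levels of different genes are not ranked. In RNA of pooled cells, fewer cells of a type and less RNA per cell cannot be told apart.

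The sorted RNA held transcripts of several cell types. All 6 acinar markers and all 3 delta cell markers examined were above background, with Cpa1, a digestive carboxypeptidase, at 14.50 ± 0.019 and Sst, which encodes somatostatin, at 13.81 ± 0.046. All 6 other endocrine markers were above background too, namely Ins2 (11.38 ± 0.039), Gcg (9.21 ± 0.079), Ppy (6.08 ± 0.042), Pyy (12.71 ± 0.018), Ghrl (9.18 ± 0.066) and Chga (9.78 ± 0.20). Both measured macrophage markers were as well, Lyz2 (10.13 ± 0.30) and Adgre1 (8.84 ± 0.19). Of 4 duct markers 2 were, Krt7 (7.98 ± 0.099) and Sox9 (5.73 ± 0.11), of 4 mesenchymal markers 2, Col3a1 (5.54 ± 0.042) and Col1a2 (4.85 ± 0.066), and of 4 endothelial markers 1, Plvap (6.44 ± 0.090). Of 6 adipocyte markers 0 were, and of 6 muscle markers 1 was, the actin gene Acta1 (5.28 ± 0.31, SD, n = 3). Of 6 hepatocyte markers 1 was, the plasma carrier gene Ttr (11.09 ± 0.10), which alpha cells also express. Which of these cells held the transcripts of the metabolic genes was not tested.

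Cytosolic and mitochondrial isozymes differed in detection for isocitrate and malate dehydrogenase, as described below, and the promoters of these pairs are shown for reference together with that of Hadhb. Each sequence runs 5′ to 3′ from 250 bases before to 50 after the gene's start in RefSeq (GRCm38.p6), with CCAAT boxes (CCAAT), GC boxes (GGGCGG) and cAMP response elements (TGACGTCA) in capitals on either strand.
Idh2, minus strand, chr7:80115301-80115600: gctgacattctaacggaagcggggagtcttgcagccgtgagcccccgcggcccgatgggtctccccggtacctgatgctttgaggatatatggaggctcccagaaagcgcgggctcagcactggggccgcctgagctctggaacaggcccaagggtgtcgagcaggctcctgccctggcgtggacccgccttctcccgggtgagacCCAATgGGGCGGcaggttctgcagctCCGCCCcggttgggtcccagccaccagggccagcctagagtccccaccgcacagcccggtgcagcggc
Idh1, minus strand, chr1:65186430-65186729: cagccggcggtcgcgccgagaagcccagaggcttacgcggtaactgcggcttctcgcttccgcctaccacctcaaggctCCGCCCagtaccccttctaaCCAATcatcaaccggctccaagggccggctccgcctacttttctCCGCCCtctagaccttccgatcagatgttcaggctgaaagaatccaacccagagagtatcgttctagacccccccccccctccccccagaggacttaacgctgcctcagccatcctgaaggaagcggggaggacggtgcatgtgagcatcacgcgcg
Mdh2, plus strand, chr5:135778399-135778698: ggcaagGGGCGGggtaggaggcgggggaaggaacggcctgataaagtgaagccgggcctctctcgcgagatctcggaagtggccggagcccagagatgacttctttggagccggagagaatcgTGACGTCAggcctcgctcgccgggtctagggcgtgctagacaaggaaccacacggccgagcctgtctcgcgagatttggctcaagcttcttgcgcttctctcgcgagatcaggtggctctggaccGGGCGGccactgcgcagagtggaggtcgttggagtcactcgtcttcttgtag
Mdh1, minus strand, chr11:21571885-21572184: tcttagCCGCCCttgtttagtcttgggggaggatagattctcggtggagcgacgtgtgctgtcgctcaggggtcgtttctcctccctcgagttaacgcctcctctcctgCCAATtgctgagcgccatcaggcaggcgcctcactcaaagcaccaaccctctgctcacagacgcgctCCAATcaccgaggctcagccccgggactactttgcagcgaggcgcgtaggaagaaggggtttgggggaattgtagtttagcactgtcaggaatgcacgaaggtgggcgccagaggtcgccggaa
Hadhb, plus strand, chr5:30155003-30155302: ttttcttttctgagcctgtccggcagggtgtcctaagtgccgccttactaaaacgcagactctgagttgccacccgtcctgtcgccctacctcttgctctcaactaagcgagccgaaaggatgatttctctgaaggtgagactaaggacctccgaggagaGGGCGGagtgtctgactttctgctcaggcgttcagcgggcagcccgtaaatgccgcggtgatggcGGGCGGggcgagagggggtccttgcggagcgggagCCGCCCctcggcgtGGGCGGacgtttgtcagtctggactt

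These are GC-rich windows, with 68.3% G and C for Idh2, 62.0% for Idh1, 62.7% for Mdh2, 59.3% for Mdh1 and 60.7% for Hadhb. Idh2 held 1 CCAAT box and 2 GC boxes and Idh1, for the first of its 2 listed windows, the same numbers. Mdh2 held 2 GC boxes and 1 cAMP response element, and Mdh1 held 2 CCAAT boxes and 1 GC box. Hadhb held 4 GC boxes. Its window shares 228 bases with that of Hadha, which is read from the opposite strand; the products of both genes form the mitochondrial trifunctional protein. Promoter windows were listed for 33 of the 39 genes, and 26 of those 33 (78.8%) held a GC box in at least 1 window, against 49.2% of the 17492 listed protein-coding genes. For the CCAAT box the counts were 17 of 33 (51.5%), against 42.3% of protein-coding genes. The core of the nuclear respiratory factor site (GCATGCGC, both strands) was found in 4 of 33 (12.1%: Acadm, Etfa, Etfdh and Ogdh), against 3.94% of protein-coding genes. The site of estrogen-related receptors, searched only as TCAAGGTCA (both strands), was in 0 of 33, against 0.377% of protein-coding genes. At so low a share this 0 says little, and other spellings of the site were not searched. All of these counts are matches of letters, and binding was not measured.

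The first steps of the cycle, from acetyl-CoA to 2-oxoglutarate, were above background for each of the 4 genes measured. Cs, which encodes citrate synthase, the enzyme that joins acetyl-CoA to oxaloacetate, read 7.31, 7.27 and 7.11 (7.23 ± 0.11). The 3 subunit genes of NAD-dependent isocitrate dehydrogenase were also called. Idh3a, its catalytic subunit, read 6.59, 6.52 and 6.45 (6.52 ± 0.068), Idh3b 8.71, 8.79 and 8.77 (8.76 ± 0.044) and Idh3g 11.15, 11.08 and 11.10 (11.11 ± 0.036). The widest range between arrays among these genes was 0.20 log2 units, for Cs. Idh3g had a second probe at background on every array (4.24 ± 0.012).

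For NADP-dependent isocitrate dehydrogenase, the gene of the mitochondrial enzyme was called and that of the cytosolic enzyme was not. Idh2, the mitochondrial enzyme, read 10.07, 10.11 and 10.35 (10.18 ± 0.15), highest on replicate 3. The probe for Idh1, the cytosolic and peroxisomal enzyme, read 4.31, 4.59 and 4.43 (4.44 ± 0.14), with detection p-values of 0.667, 0.112 and 0.288. Each of these genes was read by 1 probe, so a dim probe and a low transcript level cannot be told apart for Idh1.

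The 2-oxoglutarate dehydrogenase complex, which turns 2-oxoglutarate into succinyl-CoA, was called for all 3 subunit genes. Ogdh, its E1 component, read 8.51, 8.58 and 8.43 (8.51 ± 0.071) and Dlst, its succinyltransferase core, 8.48, 8.38 and 8.33 (8.40 ± 0.074). Dld, the dihydrolipoyl dehydrogenase that this complex shares with pyruvate dehydrogenase, lay just above background at 4.90, 5.36 and 5.23 (5.16 ± 0.23), with detection p-values of 0.0326, 0.00125 and 0.00251. Dld was lowest on replicate 1 and was no longer called at a detection p of 0.01.

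Succinyl-CoA ligase has a common alpha subunit and a choice of beta subunits. Suclg1, the alpha subunit, read 11.03, 10.99 and 11.25 (11.09 ± 0.14) with its brightest probe, while its other 2 probes were at background. Suclg2, the beta subunit of the GDP-forming enzyme, read 7.10, 7.01 and 6.99 (7.04 ± 0.057) with its brighter probe. Its other probe was at background on every array (4.29 ± 0.025). Sucla2, the beta subunit of the ADP-forming enzyme, was not above background at 4.38, 4.38 and 4.58 (4.45 ± 0.12, 1 probe). With their brightest probes the GDP-forming pair was called on all 3 arrays. The ADP-forming beta subunit, read by 1 probe only, was not above background on any.

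In the last steps the gene of the mitochondrial malate dehydrogenase was called and that of the cytosolic enzyme was not. Both malic enzyme genes were called. Fh1, fumarase, read 6.80, 6.91 and 6.86 (6.86 ± 0.053) and Mdh2, the mitochondrial malate dehydrogenase, 8.72, 8.67 and 8.64 (8.68 ± 0.039). Mdh1, the cytosolic enzyme of the malate-aspartate shuttle, had 3 probes, none of them above background on any array, and its brightest read 4.42, 4.29 and 4.52 (4.41 ± 0.11). Me1, the cytosolic malic enzyme that makes NADPH from malate, was called with both probes, the brighter at 6.54, 6.54 and 6.74 (6.61 ± 0.12) and the other at 5.49, 5.62 and 5.68 (5.59 ± 0.097). Me2, the mitochondrial malic enzyme, lay near background at 5.16, 5.20 and 5.19 (5.18 ± 0.021), with detection p-values of 0.015, 0.00627 and 0.00376. By compartment, 13 of 14 mitochondrial enzymes (92.9%) and 1 of 3 cytosolic enzymes (33.3%) of this pathway were called, against 40.9% of all named genes. The cytosolic share thus lay near that of all genes, and the difference between compartments was not tested. Me2, like Dld, was no longer called at a detection p of 0.01.

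**Figure D1:**
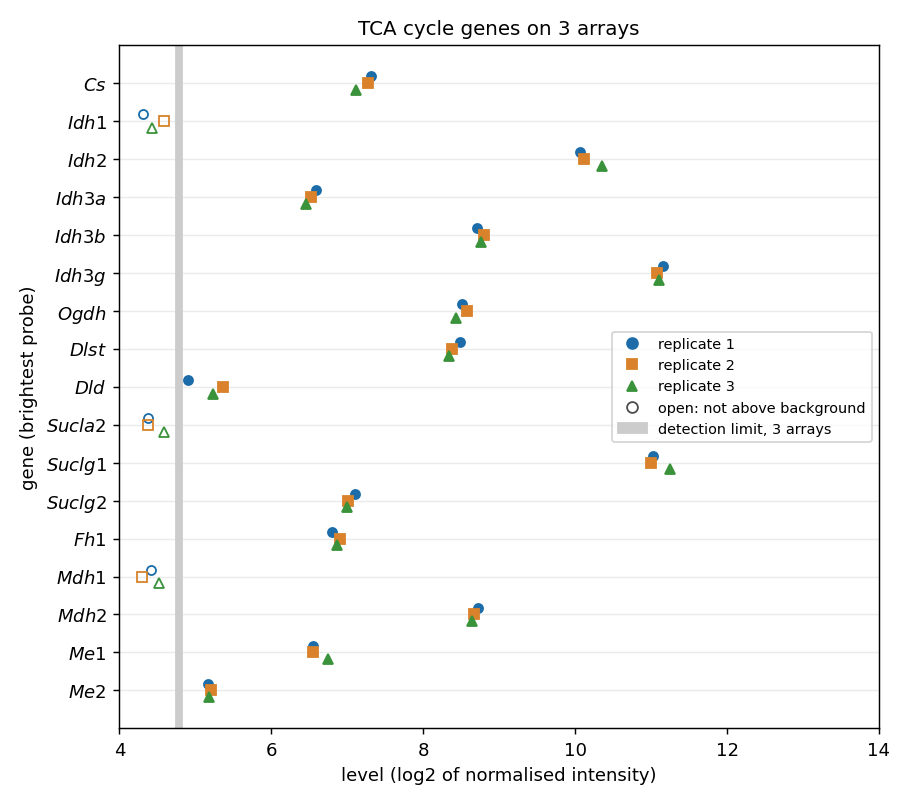
Level (log2 of normalised intensity) of the brightest probe of each of the 17 TCA cycle genes on the arrays of replicates 1, 2 and 3; open symbols mark readings not above background, and the grey band spans the detection limits of 4.75 to 4.83. Idh1, Sucla2 and Mdh1 lie left of the band on every array, and Dld and Me2 just right of it.

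Fatty acids enter mitochondria through the carnitine shuttle, for which 3 of 4 genes were called. Cpt1a, the liver-type carnitine palmitoyltransferase of the outer membrane, was not above background at 4.33, 4.37 and 4.33 (4.34 ± 0.026, 1 probe). Cpt1b, the muscle-type enzyme, was called with both probes but close to the limit, at 5.28, 5.17 and 5.14 (5.20 ± 0.072) and 5.24, 4.82 and 5.07 (5.05 ± 0.21). Both inner-membrane steps were called too. Slc25a20, the carnitine-acylcarnitine carrier, read 7.29, 7.29 and 7.18 (7.25 ± 0.065), with 2 other probes not above background (4.67 ± 0.093 and 4.29 ± 0.039). Cpt2, which returns the acyl group to coenzyme A, read 7.19, 7.10 and 7.24 (7.18 ± 0.075).

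The acyl-CoA dehydrogenases, which start each round and differ in the chain length they prefer, were called for all 5 genes. Acadvl, for very long chains, read 6.82, 6.58 and 6.62 (6.67 ± 0.13). Acadm, for medium chains, read 6.48, 6.44 and 6.50 (6.47 ± 0.027) and Acads, for short chains, 7.99, 7.87 and 7.88 (7.91 ± 0.070). A second Acadm probe, at 4.76 ± 0.094, was above background on 2 of 3 arrays and so was not called. Acadsb, for short branched chains from isoleucine, read 9.21, 9.34 and 9.48 (9.35 ± 0.14), lowest on replicate 1 and highest on replicate 3. Acadl, for long chains, varied most: its bright probe read 7.35, 6.35 and 6.87 (6.86 ± 0.50), from deposited intensities of 201, 121 and 158. Its other 2 probes were at background (4.45 ± 0.091 and 4.35 ± 0.080).

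The hydratase, second dehydrogenase and thiolase steps were called for 4 of 6 measured genes, counting the peroxisomal thiolase Acaa1a among the called ones. Echs1, the short-chain enoyl-CoA hydratase, read 8.39, 8.34 and 8.40 (8.38 ± 0.033). Hadhb, the thiolase subunit of the trifunctional protein, read 8.65, 8.88 and 9.04 (8.86 ± 0.20), again lowest on replicate 1 and highest on replicate 3. Its partner Hadha is the gene without a named probe, so the long-chain hydratase and dehydrogenase subunit was not read. Hadh, the short-chain hydroxyacyl-CoA dehydrogenase, which also restrains insulin secretion in beta cells, was not above background with either probe, the brighter at 4.59, 4.70 and 4.40 (4.56 ± 0.15).

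Thiolases differed by gene. Acaa2, the mitochondrial thiolase, read 6.83, 6.58 and 6.69 (6.70 ± 0.13) with the brightest of 4 probes. The next Acaa2 probe, at 5.03 ± 0.25, was also called. The others, at 4.88 ± 0.12 and 4.71 ± 0.12, were not. Acaa1a, a peroxisomal thiolase, read 11.70, 11.81 and 11.68 (11.73 ± 0.073). Acaa1b is a close copy of Acaa1a and probe sequences were not used here, so the Acaa1a value is uncertain; the Acaa1b probe read 5.06, 5.09 and 5.44 (5.20 ± 0.21). Acat1, which acts on acetoacetyl-CoA and in isoleucine breakdown, was not above background at 4.34, 4.47 and 4.37 (4.39 ± 0.068, 1 probe).

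The auxiliary enzymes that handle double bonds of unsaturated fatty acids were called for all 3 genes. Eci1 and Eci2, enoyl-CoA isomerases, read 6.59, 6.81 and 6.86 (6.76 ± 0.14) and 6.65, 6.98 and 6.76 (6.80 ± 0.17). Decr1, the dienoyl-CoA reductase, read 7.02, 6.79 and 6.92 (6.91 ± 0.12). The widest range between arrays among them was 0.34 log2 units, for Eci2.

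Electrons from the acyl-CoA dehydrogenases pass to the electron transfer flavoprotein and from it to ubiquinone. Both subunits of the flavoprotein were called. Etfa, the alpha subunit, read 8.07, 8.12 and 8.10 (8.09 ± 0.024) and Etfb, the beta subunit, 10.11, 10.06 and 9.92 (10.03 ± 0.100). Etfdh, the dehydrogenase that hands the electrons to ubiquinone, was not above background with either of its probes, at 4.41 ± 0.050 and 4.31 ± 0.0073.

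**Figure D2:**
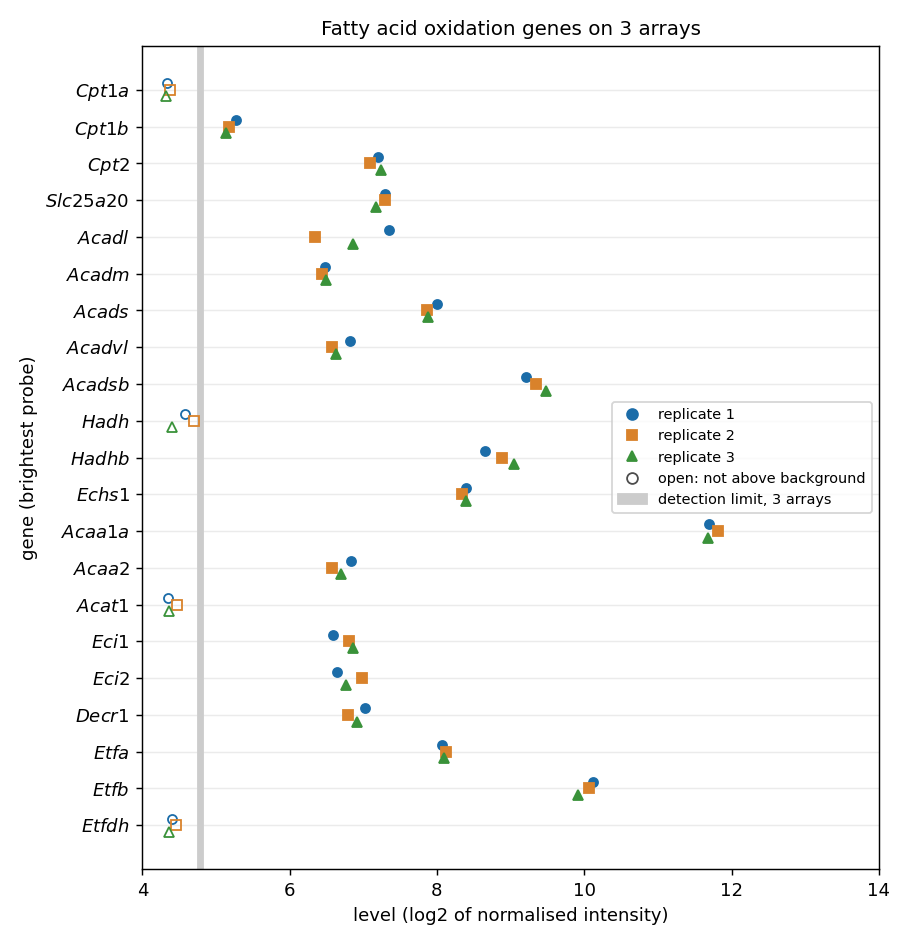
Level (log2 of normalised intensity) of the brightest probe of each of the 21 measured fatty acid oxidation genes on the arrays of replicates 1, 2 and 3; open symbols mark readings not above background, and the grey band spans the detection limits of 4.75 to 4.83. Cpt1a, Hadh, Acat1 and Etfdh lie left of the band, Cpt1b just right of it, and the 3 readings of Acadl are the farthest apart.

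Different probes of a gene often disagreed. Of the 12 called genes with more than 1 probe, 9 (75.0%) also had a probe that was not called, against 80.3% of such genes among all named genes. Suclg1 had probes at 11.09 ± 0.14, 4.30 ± 0.021 and 4.29 ± 0.052, and Idh3g at 11.11 ± 0.036 and 4.24 ± 0.012. Acads had probes at 7.91 ± 0.070 and 4.34 ± 0.084, and Etfa at 8.09 ± 0.024, 8.02 ± 0.12, 7.55 ± 0.24 and 4.30 ± 0.068. Within these genes a dim probe stood beside a bright one for the same symbol, and a dim probe alone says little about its gene. This bears on Idh1, Sucla2, Cpt1a and Acat1, each read by a single probe. Mdh1, with 3 probes, and Hadh and Etfdh, with 2 each, were not called with any.

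**Figure D3:**
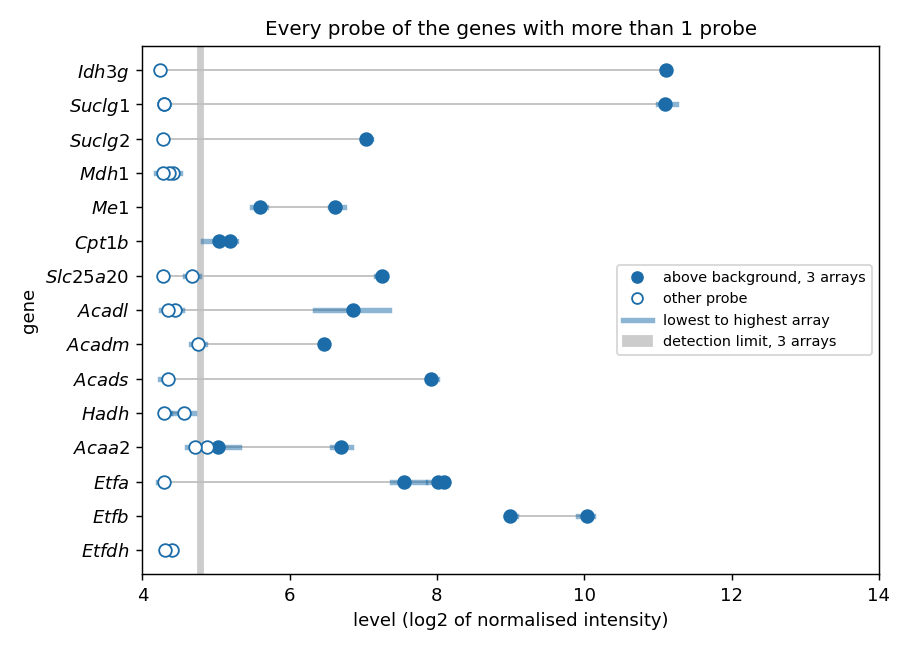
Mean level over 3 arrays (log2 of normalised intensity) of every probe of the 15 genes with more than 1 probe; filled circles mark probes above background on all 3 arrays, thick bars run from the lowest to the highest array, and the grey band is the detection limit. Idh3g and Suclg1 each have a probe above 11 and another near 4.3.

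The median SD of the called genes was 0.070 for the TCA cycle and 0.100 for fatty acid oxidation, against 0.085 for all called genes. The median deviation from a gene's own mean was -0.011, -0.0035 and -0.0043 for the TCA cycle, and 0.016, -0.025 and 0.00084 for fatty acid oxidation, against 0.0015, -0.00089 and -0.0067 over all called genes. Quantile normalisation holds such medians near 0. With median scaling they were -0.096, 0.029 and 0.053 for the TCA cycle and -0.086, 0.0033 and 0.074 for fatty acid oxidation, against -0.092, 0.028 and 0.060 over all called genes, so signs turned on replicates 2 and 3 for the TCA cycle and on replicates 1 and 2 for fatty acid oxidation.

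An F test in limma set the variance of each probe over the 3 arrays against the variance fitted for its level, over all 8486 probes above background. None of the 37 probes of these genes passed at an adjusted p of 0.05, and none of all 8486 did (0%). At an unadjusted p under 0.05 there were 5 of 37 (13.5%), against 407 of 8486 (4.8%). The 5 probes were those of Acadl, Hadhb, Idh2 and Suclg1 and the third-brightest probe of Etfa. Acadl had the smallest p (0.000431; limma F test, adjusted p = 0.443), with a range of 1.01 log2 units, or 2.01-fold, between replicate 1 and replicate 2. The Acadl probe passed with median scaling in place of quantile normalisation (limma F test, adjusted p = 0.0227), where 36 of all 8486 probes passed (0.424%) and 1 of the 37 member probes. It also passed when all probes were tested (limma F test, adjusted p = 0.00602), where 22 of 25697 passed (0.0856%) and 1 of 61 member probes. On the same readings its unadjusted p (limma F test) was 1.87e-06 there and 0.0287 with a variance fit robust to outliers. The readings were unchanged, so these p-values differ through the variance fit alone. The adjusted p of the Acadl probe ran from 0.489 to 0.984 over the other alternatives.

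The other 4 probes were highest on replicate 3. Over all 31 called members replicate 3 was highest for 9 (29.0%), against 29.7% of all called genes. Hadhb ranged over 0.40 log2 units (adjusted p = 0.982, limma F test), Idh2 over 0.28 (adjusted p = 0.989, limma F test) and Suclg1 over 0.25 (adjusted p = 0.989, limma F test). For Etfa the probe read 7.44, 7.39 and 7.83, a range of 0.44, but the 2 brighter probes of the gene ranged over 0.05 and 0.23. Replicate 3 was also highest for the macrophage lysozyme gene Lyz2, at 9.89, 10.05 and 10.47, while Adgre1, the other measured macrophage marker, read 8.62, 8.97 and 8.92. The part of macrophage RNA in these differences was not tested.

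**Figure D4:**
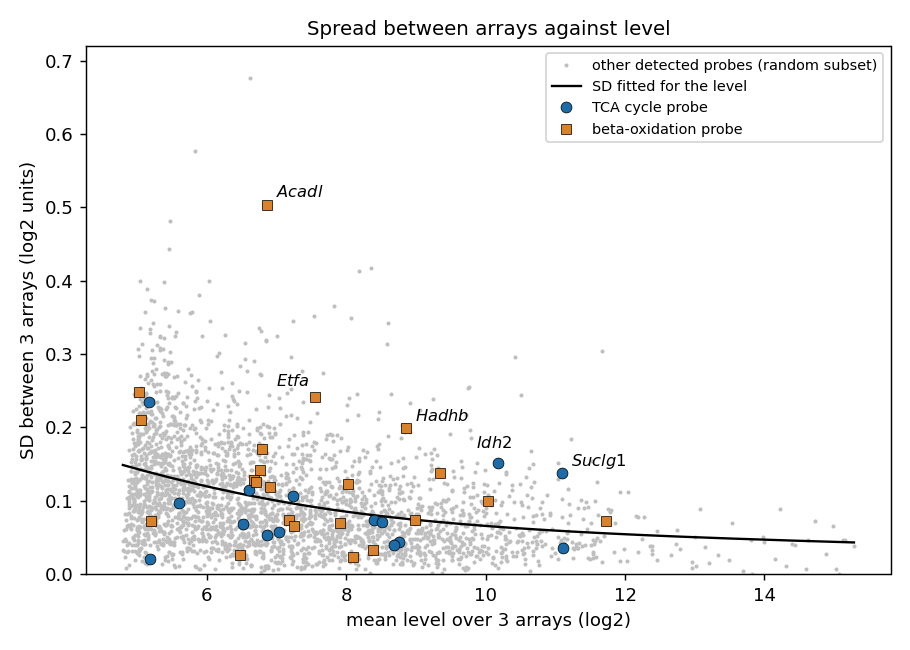
SD between the 3 arrays (log2 units) against mean level (log2) for the 37 TCA cycle and fatty acid oxidation probes above background, over a random subset of the other probes above background in grey; the line is the SD fitted for each level. Acadl, at an SD of 0.50, stands farthest above the line among these probes.

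Genes next to the 2 pathways were taken from lists of neighbouring functions. Of the genes that bring pyruvate into the cycle 5 of 11 were called (45.5%, near the 40.9% of all genes). Pdha1, a subunit of pyruvate dehydrogenase, read 7.20 ± 0.11, and Dlat, its acetyltransferase, 5.33 ± 0.17. Pdhb (4.33 ± 0.031, 2 probes) and Pdhx (4.31 ± 0.12, 1 probe), also of this complex, were not above background on any array. Pdk1 and Pdk4, kinases that switch the complex off, read 5.26 ± 0.12 and 6.41 ± 0.17, while the kinase genes Pdk2 and Pdk3 were not called. Pdp2, a phosphatase that acts against these kinases, read 7.99 ± 0.065. Of the cycle's other enzymes 3 of 6 were called, namely the succinate dehydrogenase subunits Sdhb (5.01 ± 0.056), Sdhc (9.57 ± 0.064) and Sdhd (6.07 ± 0.18). Of the shuttle and anaplerosis genes 7 of 11 were called (63.6%). Among them were the mitochondrial carriers Slc25a1 for citrate (8.25 ± 0.18), Slc25a10 for dicarboxylates (5.66 ± 0.067), Slc25a11 for 2-oxoglutarate (7.05 ± 0.11) and Slc25a12 for aspartate and glutamate (5.54 ± 0.045).

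On the side of fatty acids, uptake and activation genes were called for 10 of 13 (76.9%). Slc27a1 and Slc27a4, fatty acid transport proteins, read 5.94 ± 0.12 and 4.95 ± 0.096, Fabp5, a fatty acid-binding protein, 5.55 ± 0.15, and Acsl3, a long-chain acyl-CoA synthetase, 5.90 ± 0.11. Further enzymes of mitochondrial acyl-CoA metabolism were called for 7 of 9 (77.8%). Ivd, for the leucine breakdown product isovaleryl-CoA, read 8.58 ± 0.051 and Hsd17b10, a hydroxyacyl-CoA dehydrogenase, 10.61 ± 0.100. Peroxisomal genes were called for 8 of 11 (72.7%), with Acox3, an acyl-CoA oxidase, at 6.93 ± 0.10 and Hsd17b4, the D-bifunctional protein, at 8.47 ± 0.052. Of 3 measured ketone body genes 2 were called, Bdh1 (5.62 ± 0.11), the mitochondrial 3-hydroxybutyrate dehydrogenase, and Bdh2 (9.10 ± 0.050).

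Regulators of oxidative genes were called for 7 of 11 (63.6%), and the called ones ran from 5.02 to 8.58 with a median of 5.80. Esrra, which encodes estrogen-related receptor alpha, read 6.90 ± 0.034. The coactivator genes Ppargc1a (5.40 ± 0.13) and Ppargc1b (5.80 ± 0.14) and the nuclear receptor gene Pparg (5.02 ± 0.065) lay within about 1 log2 unit of the detection limit. With no control array, none of these readings shows a response.

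**Figure D5:**
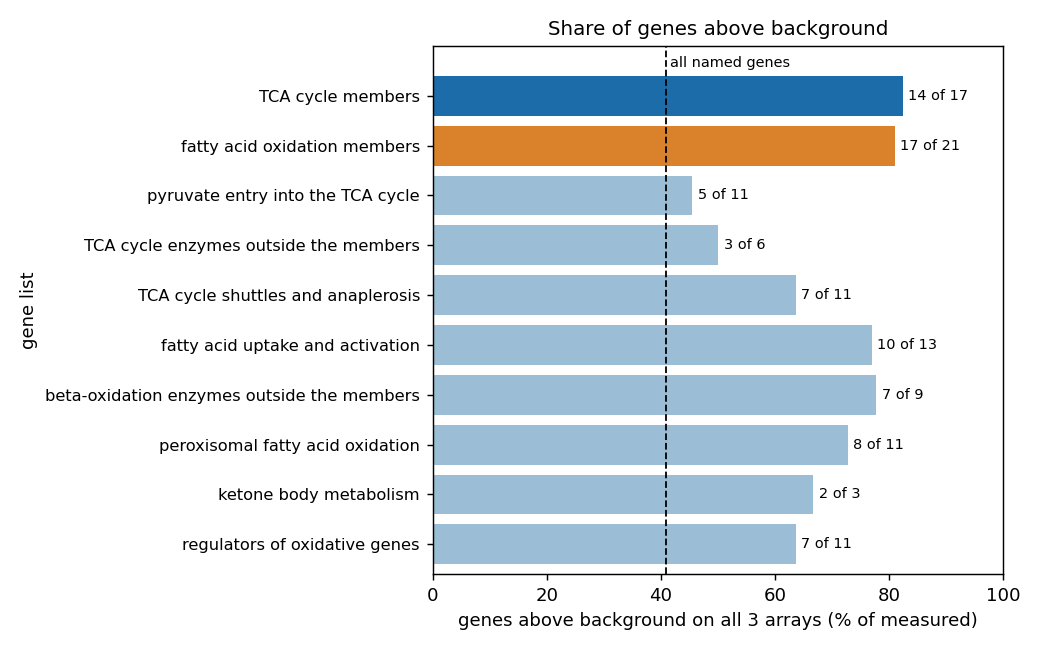
Share of measured genes above background on all 3 arrays (%) for the TCA cycle members, the fatty acid oxidation members and 8 lists of neighbouring genes, with counts beside the bars; the dashed line is the 40.9% of all named genes. The members' bars end at 82.4% and 81.0%, and that of pyruvate entry at 45.5%.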

How the data were processed

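The deposited scanner table gives each probe's average bead intensity and its detection p-value, per the file headers. Its intensity columns share a mean of 211.8 with medians of 65.9, 59.5 and 57.2, so the authors had scaled them before deposit, without subtracting background. The second deposited table, used as an alternative, holds processed intensities with near-identical distributions; its target is unknown. The scanner's software was not named in the sources.

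Intensities were corrected by normexp from the detection p-values (offset 16), quantile normalised and taken to log2 (neqc, limma 3.58.1, R 4.3.3). Of 25697 probes, 23978 had 1 gene symbol, 0 several and 1719 none, with 0 symbols changed through Entrez identifiers. The limma F test divided each probe's variance over 3 arrays by the prior variance trended on level, with Benjamini-Hochberg adjustment over 8486 probes, and was tested on simulated data. Arrays detected 35.6%, 37.3% and 37.8% of probes. Between arrays, Pearson's r across the 8486 probes above background on all 3 was 0.995 to 0.996. The number of arrays limits precision. Nothing says that replicates were separate mice, so their spread may be technical.

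The members and gene lists were chosen with earlier results of these data known. Every measured member is named, with every probe of the members described as disagreeing and the 5 probes of smallest F test p. Per neighbouring list at most 4 called genes are named, with Pdp2 added to those for pyruvate entry. Promoter windows are RefSeq's (GRCm38.p6). Alternatives were other detection rules, scalings, priors and leaving out each array.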

Additional observations from a re-analysis of the deposited data

How the results depend on the processing

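The counts of called genes ranged from 12 to 14 for the TCA cycle and from 15 to 17 for fatty acid oxidation over all 8 detection alternatives, with both pathways' shares above that of all genes in each. A detection p of 0.01 dropped Dld and Me2, adjustment within each array dropped Dld, and asking that called probes be no fewer than uncalled ones dropped Suclg1, Slc25a20 and Acadl. The difference between the pathways' shares (TCA cycle minus fatty acid oxidation) was -10.4 percentage points at a detection p of 0.01, -4.48 with adjusted detection p-values and 5.04 with the rule on called and uncalled probes, so its sign depends on the rule. The number of member probes past the limma F test was 1 of 37 under median scaling (36 of all 8486 probes) and 1 of 61 with undetected probes included (22 of all 25697), in both cases Acadl, and 0 with the authors' processed table, without a variance trend, with a robust prior and without any 1 array. The range of the array medians was 0.0071 for the TCA cycle and 0.041 for fatty acid oxidation. With median scaling, which shifted all called genes by 0.152 between arrays, it was 0.150 and 0.160; with all measured genes it was 0.0252 for the TCA cycle, and without 1 array it ran from 0.00948 (replicate 2 left out) to 0.0303 (replicate 1 left out) for the TCA cycle and from 0.0225 (replicate 2 left out) to 0.0544 (replicate 3 left out) for fatty acid oxidation. The cause of these movements was not tested. Dim signal limits the calls of Dld, Me2 and Cpt1b.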
